A study of Mus musculus with 20 samples.

Results

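Interferon-stimulated genes were followed in the thoracic aorta of irradiated mice. The members were 39 genes of the type I interferon response and of antigen processing, named by symbol, and a member was kept when its mean read count over the 20 mice was 5 or more. Of the 39 listed genes, 38 had a row in the count table of 21078 genes, and 35 of these reached the minimum, as 13124 genes of the whole table did. Psmb9 was not analysed here. Zbp1 (mean count 4.75, range 0 to 15), Ifi44 (mean count 4.20, range 1 to 12) and Oasl1 (mean count 1.95, range 0 to 8) stayed below the minimum, and their highest counts were in the gamma mouse at 25 cGy, the proton mouse at 75 cGy and the gamma mouse at 25 cGy, respectively.

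The animals were wildtype male C57BL/6 mice 10 to 12 weeks old, and all carried the same genotype. One set of 10 received high energy protons over the whole body and the other set of 10 received gamma rays from a cesium source, at 0, 5, 10, 25, 50, 75, 100, 125, 150 or 200 cGy, with 1 mouse for each dose and radiation type. The mice at 0 cGy were sham-irradiated, and all aortas were taken 4 hours after exposure. Since no dose was repeated within a radiation type, the error of a dose response is the scatter of single mice around a trend, which may hold technical as well as biological variation. RNA came from the whole vessel. Fewer cells of a type and less RNA per cell therefore cannot be told apart in any of the values below.

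Type I interferons bind the receptor of Ifnar1 and Ifnar2, whose kinases Jak1 and Tyk2 phosphorylate Stat2. With Irf9 it takes part in a transcription factor complex that binds the interferon-stimulated response element (ISRE) of target promoters, and the products of the targets block viral replication, sense foreign nucleic acid, trim peptides for MHC class I or feed back on the receptor. Interferon gamma acts at a different motif, the gamma-activated site (GAS), and shares many of the targets, among them the guanylate-binding proteins and the antigen processing genes.

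The promoters of the members show how far these motifs are shared. Of the 35 members tested, 27 (77.1%) had an entry among the RefSeq promoter sequences of build GRCm38.p6, and the letters GAAANNGAAA were searched on both strands in the 250 bases before the start of each gene. They were found in 11 of the 27 (40.7%), which were Gbp2, Gbp3, Isg15, Oas1a, Bst2, Stat2, Irgm1, Igtp, Rsad2, Ifit1 and Ifit3, and in 936 of 27025 promoters of all genes (3.46%). TTCNNNGAA, the GAS letters, which read the same on both strands, were found in 7 members (25.9%), namely Samhd1, Oas1a, Bst2, Irf1, Igtp, Psmb8 and Ifit2, and in 2197 promoters of all genes (8.13%). The 2 motifs were counted separately, so that Oas1a, Bst2 and Igtp hold both. The last 170 bases before the start are given for 5 members that hold the ISRE letters and for Oasl2, Psmb8 and Tap1, which do not and to which the results below return. Each sequence reads 5′ to 3′ on the strand of its gene, and capitals mark the ISRE letters of either strand.
Isg15, chr4:156200819-156200988, minus strand: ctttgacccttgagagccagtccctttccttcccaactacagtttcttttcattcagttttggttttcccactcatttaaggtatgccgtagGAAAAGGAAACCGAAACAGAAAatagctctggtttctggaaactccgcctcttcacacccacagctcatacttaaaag
Ifit1, chr19:34640719-34640888, plus strand: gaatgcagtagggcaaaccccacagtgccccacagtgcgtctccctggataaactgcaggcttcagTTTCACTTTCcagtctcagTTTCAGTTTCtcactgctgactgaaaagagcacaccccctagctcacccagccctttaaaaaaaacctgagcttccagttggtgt
Ifit3, chr19:34583359-34583528, plus strand: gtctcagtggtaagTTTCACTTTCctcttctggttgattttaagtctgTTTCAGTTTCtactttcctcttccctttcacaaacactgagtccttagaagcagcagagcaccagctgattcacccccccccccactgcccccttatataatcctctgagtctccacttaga
Rsad2, chr12:26456453-26456622, minus strand: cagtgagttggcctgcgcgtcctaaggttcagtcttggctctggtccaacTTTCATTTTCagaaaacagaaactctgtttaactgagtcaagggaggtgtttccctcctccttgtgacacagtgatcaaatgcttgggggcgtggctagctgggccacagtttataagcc
Gbp2, chr3:142620493-142620662, plus strand: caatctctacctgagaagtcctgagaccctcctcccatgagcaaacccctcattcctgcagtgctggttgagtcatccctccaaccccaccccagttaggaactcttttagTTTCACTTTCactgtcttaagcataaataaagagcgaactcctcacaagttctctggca
Oasl2, chr5:114896764-114896933, plus strand: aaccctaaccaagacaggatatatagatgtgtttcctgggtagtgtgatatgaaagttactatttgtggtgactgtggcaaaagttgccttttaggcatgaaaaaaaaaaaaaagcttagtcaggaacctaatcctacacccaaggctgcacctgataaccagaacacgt
Psmb8, chr17:34198025-34198194, plus strand: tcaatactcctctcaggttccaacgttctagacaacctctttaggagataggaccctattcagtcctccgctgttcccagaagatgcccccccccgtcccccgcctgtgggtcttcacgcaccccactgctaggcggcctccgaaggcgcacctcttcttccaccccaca
Tap1, chr17:34187386-34187555, plus strand: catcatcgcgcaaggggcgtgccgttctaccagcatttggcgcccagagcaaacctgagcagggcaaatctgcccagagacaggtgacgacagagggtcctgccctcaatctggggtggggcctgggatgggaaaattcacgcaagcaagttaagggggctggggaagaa
In Isg15 3 overlapping matches form 1 run of capitals, whereas Ifit1 and Ifit3 each hold 2 separate matches. A match of letters is a description, and promoters without one can hold the element farther away or in other letters.

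Library totals lay between 6051657 and 6058006 counts, because the authors resampled the reads to a common depth, and intervals from such counts would cover counting error only. Markers of vascular smooth muscle, the main cell type of the aortic wall, summed to 26703 to 56767 CPM (counts scaled to library size). The proton mouse at 75 cGy stood apart from the others, with the lowest smooth muscle sum and the highest sums of brown fat markers (2189 CPM against a median of 163.9 CPM over all mice) and white fat markers (1241 CPM against 148.9 CPM). Another property differed at the highest doses. The correlation across 9702 genes between GC content and a gene's deviation from its mean was -0.41 to -0.35 in the 4 mice at 150 and 200 cGy and -0.02 to 0.29 in the other 16, so for dose slopes the highest doses and a difference between libraries cannot be told apart.

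Per kilobase of transcript, the highest mean levels of members were those of Samhd1, which breaks down nucleotides needed for viral DNA synthesis (23.3 CPM per kilobase), Bst2, which tethers virus particles to the cell surface (21.6), and Ifi35 (20.7). The lowest were those of the oligoadenylate synthetases Oas1a (0.471 CPM per kilobase) and Oas2 (0.563) and of the GTPase Mx2 (0.617). The median mean count was 61.55 among the members and 153.1 among all tested genes, and 9 members had a mean count under 20. The members spread more from mouse to mouse than other genes, with a median coefficient of variation of 27.0% against 16.8% over all tested genes. Without the proton mouse at 75 cGy these were 25.1% and 15.2%. It was above 50% in 7 members of 35, against 10.4% of all tested genes. These were Rsad2 (89.0%, and 55.5% without the proton mouse at 75 cGy), Oas1a (75.8%), Ifit1 (64.2%), Rtp4 (60.4%), Psmb8 (57.2%, and 48.5% without that mouse), Oas2 (57.2%) and Dhx58 (54.1%), most of which also had low counts, where counting error adds to the spread. The smallest coefficient of variation was that of Ifi35, with 7.64%.

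The members rose and fell together from mouse to mouse. For each pair of members, the Spearman correlation of log2(CPM + 1) over the 20 mice was taken as a description. The median over 595 pairs was 0.38 (quartiles 0.13 and 0.57), against -0.00 (-0.21 and 0.21) over all pairs of tested genes. The correlation exceeded 0.5 in 199 pairs of members (33.4%), against 4.88% of all pairs, and was below 0 in 108 pairs. Within the 10 proton mice the median was 0.35 and within the 10 gamma mice it was 0.41, and it was -0.01 over all pairs of genes in both. The first principal component held 46.1% of the variance of the members, against 23.5% for all tested genes. Leaving out 1 mouse at a time moved the median pair correlation between 0.34 and 0.42, with the lowest value without the proton mouse at 75 cGy. Over the 20 members with a mean count of 50 or more it was 0.24.

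**Figure D1:**
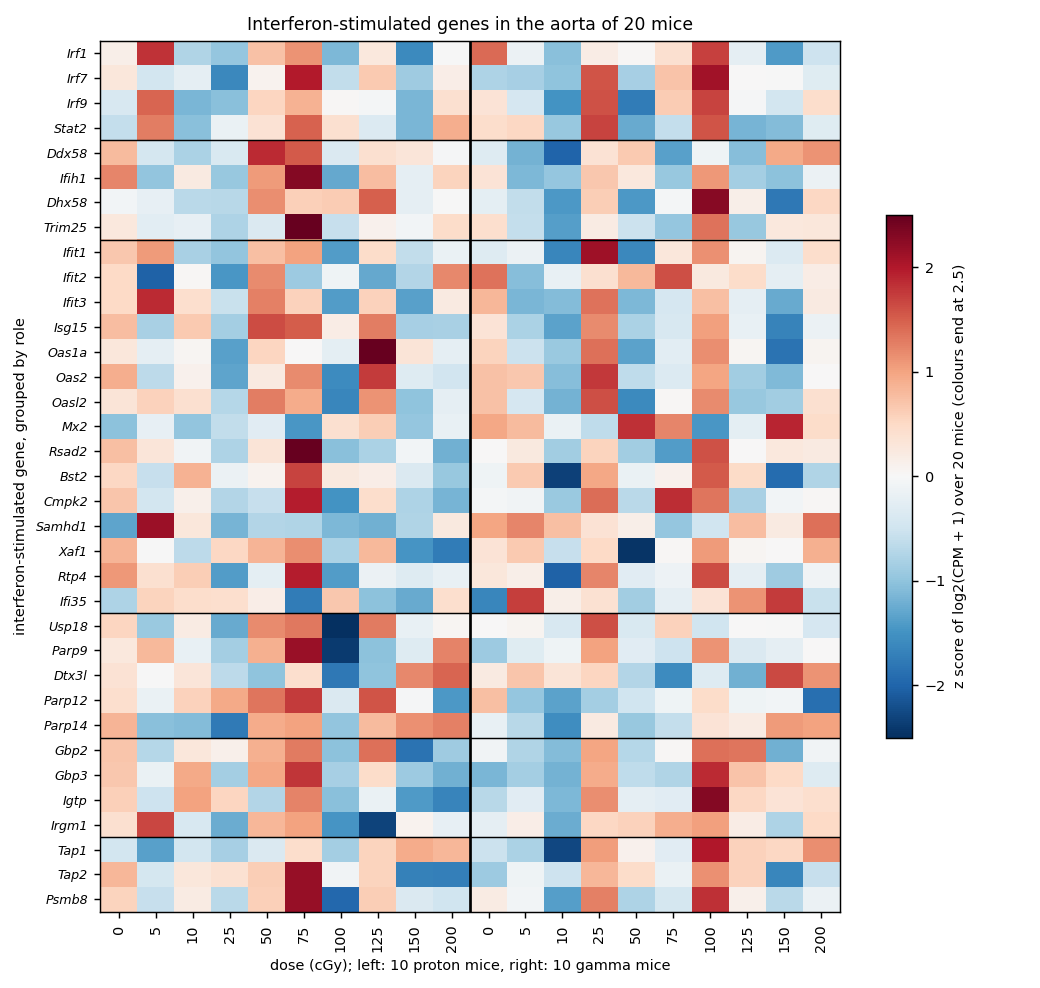
Expression of the 35 members (rows, grouped by role and separated by lines) in 20 mice (columns, 10 proton mice on the left and 10 gamma mice on the right, by dose in cGy), as z scores of log2(CPM + 1) over the mice. Red columns, in which most members are high together, are the proton mouse at 75 cGy and the gamma mice at 25 and 100 cGy, and blue columns include the proton mouse at 100 cGy and the gamma mouse at 10 cGy.

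A mean z score per mouse, averaged over the 35 members, placed the mice in an order that did not follow dose. The highest scores were 1.14 in the proton mouse at 75 cGy, 1.04 in the gamma mouse at 100 cGy and 0.88 in the gamma mouse at 25 cGy. The lowest were -1.02 in the gamma mouse at 10 cGy and -0.83 in the proton mouse at 100 cGy. In the proton mouse at 75 cGy 24 of 35 members had a z score above 1, and so did 24 in the gamma mouse at 100 cGy. In the gamma mouse at 10 cGy 21 members had a z score below -1, and in the proton mouse at 100 cGy 17 did. The mice at 100 cGy were thus near opposite ends. The shares of all tested genes beyond 1 or -1 are not given here, so these counts do not show a trait particular to the members. The proton mouse at 75 cGy and the gamma mouse at 100 cGy also had the most genes with a count (16949 and 16603). The Spearman correlation of the score with dose was -0.30 in proton mice and 0.20 in gamma mice, given as a description. The sham-irradiated mice scored 0.35 (proton set) and 0.09 (gamma set), and the mice at 200 cGy scored -0.16 and 0.13, so that both unirradiated mice lay between the extremes.

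Psmb8 (ENSMUSG00000024338, chromosome 17, 34334666 to 34338399, plus strand), the inducible subunit of the immunoproteasome, followed the other members most closely, with a Spearman correlation of 0.91 between its level and the mean z score of the other members over the 20 mice. Its counts had a lowest, median and highest value of 15, 43.5 and 134 in proton mice and of 21, 41.5 and 114 in gamma mice. The 2 highest counts were in the proton mouse at 75 cGy and the gamma mouse at 100 cGy, and the ranges of the radiation types overlapped almost completely. From the lowest to the highest mouse its level in CPM differed 8.74-fold.

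Oasl2 (ENSMUSG00000029561, chromosome 5, 115346943 to 115362243, plus strand), a relative of the oligoadenylate synthetases, had a correlation of 0.89 with the other members. Its counts were 15, 42.5 and 65 in proton mice and 15, 32 and 75 in gamma mice (lowest, median and highest). Oas2 (ENSMUSG00000032690, chromosome 5, 121180342 to 121199862, minus strand), which makes the activator of RNase L, had a correlation of 0.82, with counts of 4, 11.5 and 30 in proton mice and 6, 11 and 30 in gamma mice. The gamma mouse at 25 cGy had the highest gamma count of both Oasl2 and Oas2, and neither separated the radiation types. Across all 595 pairs the closest was Oas2 with Psmb8 (0.91), followed by Ifit3 with Oasl2 (0.90).

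Ifit1 (ENSMUSG00000034459, chromosome 19, 34715361 to 34724499, plus strand) and Ifit3 (ENSMUSG00000074896, chromosome 19, 34658021 to 34663221, plus strand) encode tetratricopeptide proteins that bind foreign RNA or its partners, and had correlations of 0.89 and 0.82 with the other members. Ifit1 counts were 4, 14 and 23 in proton mice and 3, 12 and 41 in gamma mice, and Ifit3 counts were 38, 68.5 and 102 in proton mice and 40, 53.5 and 90 in gamma mice (lowest, median and highest). The gamma mouse at 25 cGy had the highest gamma count of both genes. Isg15 (ENSMUSG00000035692, chromosome 4, 155573533 to 155574927, minus strand), the ubiquitin-like protein that is joined to other proteins after interferon, had a correlation of 0.82, with counts of 7, 13.5 and 23 in proton mice and 4, 9.5 and 19 in gamma mice. With such low counts, a good part of the step between neighbouring mice lies within counting error.

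Of the transcription factors of the response, Irf7, the amplifier of type I interferon production, had counts of 11, 21.5 and 47 in proton mice and 14, 20.5 and 49 in gamma mice (lowest, median and highest), with the highest at 75 cGy of protons and 100 cGy of gamma rays. Irf9, the DNA-binding partner of Stat2, had 107, 125 and 145 counts in proton mice and 97, 125.5 and 155 in gamma mice. Irf1, a factor induced by interferon gamma, had 122, 166.5 and 224 in proton mice and 128, 159 and 229 in gamma mice, and Stat2 had 153, 185.5 and 228 and 147, 169.5 and 233. The highest proton counts of Irf1 and Irf9 were in the mouse at 5 cGy, whose mean z score was 0.02. Irf7 differed 4.38-fold in CPM from the lowest to the highest mouse, whereas Irf1, Irf9 and Stat2 differed 1.85-fold, 1.51-fold and 1.52-fold.

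Among the sensing genes, Ifih1, which encodes the RNA sensor MDA5, had counts of 24, 47.5 and 101 in proton mice and 25, 33.5 and 64 in gamma mice (lowest, median and highest). Trim25, the ubiquitin ligase that acts on RIG-I, had 80, 92 and 209 in proton mice and 67, 90.5 and 134 in gamma mice. The highest counts of both in either set were again in the proton mouse at 75 cGy and the gamma mouse at 100 cGy. Dhx58, which encodes LGP2, had 7, 10 and 21 counts in proton mice and 3, 9.5 and 29 in gamma mice.

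Rsad2, the antiviral enzyme viperin, had counts of 6, 15 and 83 in proton mice and 5, 17 and 43 in gamma mice (lowest, median and highest), and its neighbour Cmpk2, a mitochondrial nucleotide kinase, had 32, 41 and 76 and 36, 46 and 73. Rsad2 was highest in the proton mouse at 75 cGy and the gamma mouse at 100 cGy, whereas Cmpk2 was highest in the proton mouse at 75 cGy and the gamma mouse at 75 cGy. Of the other effectors, Bst2 ran from 82 to 135 counts in proton mice and from 64 to 132 in gamma mice, Xaf1 from 19 to 46 and from 15 to 45, Rtp4 from 6 to 47 and from 3 to 40, and Oas1a from 1 to 19 and from 0 to 11. In each of these the radiation types overlapped over most of the range.

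The GTPases Gbp2 and Gbp3, guanylate-binding proteins that attack the vacuoles of intracellular pathogens, had correlations of 0.77 and 0.74 with the other members. Gbp2 counts were 140, 190.5 and 230 in proton mice and 154, 180.5 and 230 in gamma mice, and Gbp3 counts were 24, 40 and 70 in proton mice and 24, 31 and 72 in gamma mice (lowest, median and highest). Irgm1, a regulator of the immunity-related GTPases, had 76, 115 and 161 in proton mice and 90, 125 and 148 in gamma mice. Gbp3 was highest in the proton mouse at 75 cGy and the gamma mouse at 100 cGy, whereas the highest Irgm1 count was in the proton mouse at 5 cGy.

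Of the 35 members, 26 had a correlation above 0.5 with the others over 20 mice, 24 in proton mice, 25 in gamma mice and 19 in both sets. The share of all tested genes above 0.5 is not given here, so these counts do not show a trait particular to the members. By role, the median correlation with the other members was 0.70 for the 4 transcription factors, 0.63 for the 4 sensing genes, 0.72 for the 15 antiviral effectors, 0.65 for the 4 GTPases, 0.58 for the 3 antigen processing genes and 0.39 for the 5 feedback, ubiquitin and ADP-ribose enzymes. Usp18, which removes Isg15 from proteins and dampens the receptor, had a correlation of 0.89 in proton mice and of 0.01 in gamma mice. Its counts were 1, 10.5 and 18 in proton mice and 8, 10 and 20 in gamma mice (lowest, median and highest). Counting error is large at such counts, and a difference between the radiation types in this correlation was not tested. The 11 members with the ISRE letters before their start had a median correlation of 0.72 with the others, and the 16 without them had 0.65, and both Psmb8 and Oasl2, at the top of the order, belonged to the latter.

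A few members did not follow the others. Mx2 (ENSMUSG00000023341, chromosome 16, 97757690 to 97782506, plus strand), of a family of interferon-induced GTPases, had a correlation of -0.49 with the other members, and its counts were 5, 7.5 and 11 in proton mice and 5, 10.5 and 16 in gamma mice (lowest, median and highest). Its lowest counts were in the 2 mice with the highest mean z scores. Ifi35 (ENSMUSG00000010358, chromosome 11, 101309721 to 101320012, plus strand) had a correlation of -0.34, with counts of 152, 173.5 and 179 in proton mice and 150, 172.5 and 196 in gamma mice, a narrow range throughout. Mx2 had a mean count of 9 and Ifi35 a coefficient of variation of 7.64%, so counting error may make up much of their spread. Samhd1 (ENSMUSG00000027639, chromosome 2, 156923265 to 156961001, minus strand) had a correlation of -0.02, with counts of 446, 485 and 768 in proton mice and 467, 596 and 675 in gamma mice. Dtx3l, an E3 ubiquitin ligase with 96 to 162 counts over all mice, and Ifit2, with 122 to 195, were also near 0, with -0.00 and 0.08. Parp9, the partner of Dtx3l, had 0.51 and 109 to 208 counts.

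**Figure D2:**
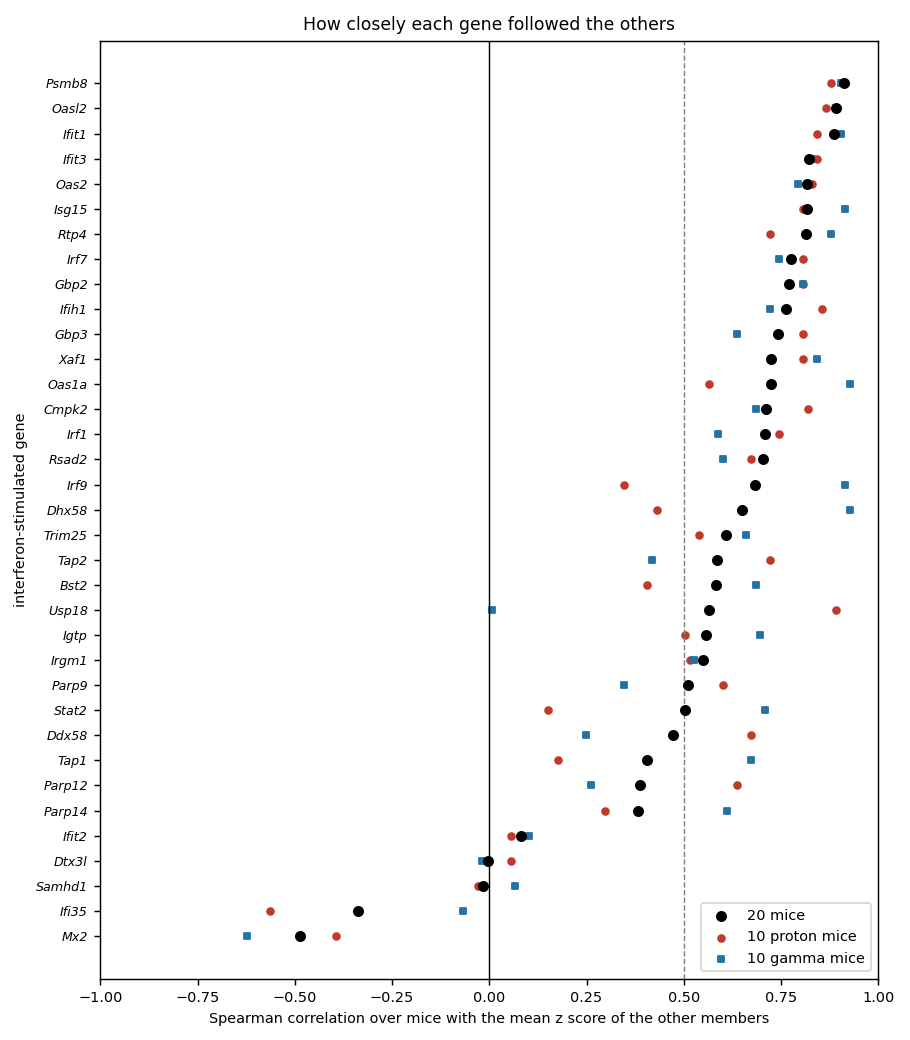
Spearman correlation (x axis) of each member (y axis) with the mean z score of the other members over 20 mice (black), 10 proton mice (red) and 10 gamma mice (blue). Points to the right of the dashed line at 0.5 are members that followed the others, with Psmb8 (0.91) at the top and Mx2 (-0.49) at the bottom.

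Several members lie next to each other. The 12 pairs on the same chromosome with at most 200 kb between them had a median correlation of 0.49 (range 0.04 to 0.77), and the other 583 pairs had 0.38 (-0.63 to 0.91). Within the Ifit cluster of chromosome 19, Ifit1 had a correlation of 0.77 with Ifit3 but of 0.04 with Ifit2. In the MHC region of chromosome 17, Psmb8 lies between Tap1 and Tap2, which encode both chains of the peptide transporter. There Tap2 had a correlation of 0.62 with Psmb8, Tap1 had 0.47 with Psmb8, and the transporter genes had 0.13 with each other. Oas1a with Oas2 (0.76) and Gbp2 with Gbp3 (0.72) were close. Parp9 and Dtx3l overlap on opposite strands (0.46), and the counts used were those of the sense strand. Reads of near-identical relatives in the Oas, Ifit and Gbp families could be split wrongly by the counting.

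The order of the mice also followed the summed levels of several sets of cell type markers. The summed CPM of 7 macrophage markers ranged from 82.9 to 504 CPM and had a Spearman correlation of 0.83 with the mean z score of the members over the 20 mice (0.83 in proton mice and 0.92 in gamma mice). Of the 35 members 20 had a correlation above 0.5 with this sum, against 12.2% of all tested genes. This was not particular to macrophage markers. The count was 20 for B cell markers (10.8% of all tested genes), 19 for fibroblast (9.70%), 19 for red blood cell (9.43%) and 18 for neutrophil markers (9.90%). For the other cell types it was at most 13 (brown fat, 10.5%). The mean z score also followed the sums of red blood cell markers (0.78, from 20.5 to 2014 CPM), fibroblast markers (0.80, from 1634 to 5198 CPM), endothelial markers (0.62, from 348 to 1257 CPM) and brown fat markers (0.53, from 77.3 to 2189 CPM), and ran against vascular smooth muscle markers (-0.75). B cell markers (0.81) and neutrophil markers (0.77) followed it at levels of at most 8.48 and 13.1 CPM, and T and NK cell markers (0.55) at no more than 3.22 CPM. White fat markers had 0.36. The dendritic cell sum had 0.02, but it held only 2 of the 6 listed markers, Siglech (mean count 5.7) and Zbtb46 (143). It is thus mainly a value of Zbtb46 and says little about dendritic cells. No marker with a row was at 0 in all mice. The sum of 6 p53 targets, a DNA damage response that ran from 267 to 1214 CPM in the same libraries, had -0.03. Without the proton mouse at 75 cGy the correlation was 0.80 for macrophage, -0.71 for smooth muscle, 0.45 for brown fat, 0.25 for white fat and 0.48 for T and NK cell markers. All these sums share the libraries and their normalization with the score.

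Joint variation was smaller once a marker sum that went with the mean z score was taken out. Removing a line on any such sum lowers the pair correlations, so this does not show why the members varied together. After a line on log2 of the macrophage sum was removed from each gene, the median pair correlation of the members was 0.18, and after lines on the red blood cell, smooth muscle, endothelial and brown fat sums it was 0.23, 0.25, 0.27 and 0.27. With the macrophage line removed, 15 of the 35 members kept a correlation above 0.5 with the others, among them Psmb8 (0.89), the GTPases Gbp3 (0.80), Igtp (0.66), Gbp2 (0.63) and Irgm1 (0.61), Ifit1 (0.75) and the transcription factor Irf7 (0.72). Oas1a (0.05), Trim25 (0.15) and Ddx58 (0.03) were low. A share over all tested genes is not given for this count either. In the 10 mice with the lower macrophage sums (82.9 to 197 CPM) the median pair correlation was 0.21, and in the 10 with the higher sums (230 to 504 CPM) it was 0.36. The mean z scores ran from -1.02 to 0.02 in the former 10 mice and from -0.54 to 1.14 in the latter 10. Which cells carried the member transcripts was not tested.

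**Figure D3:**
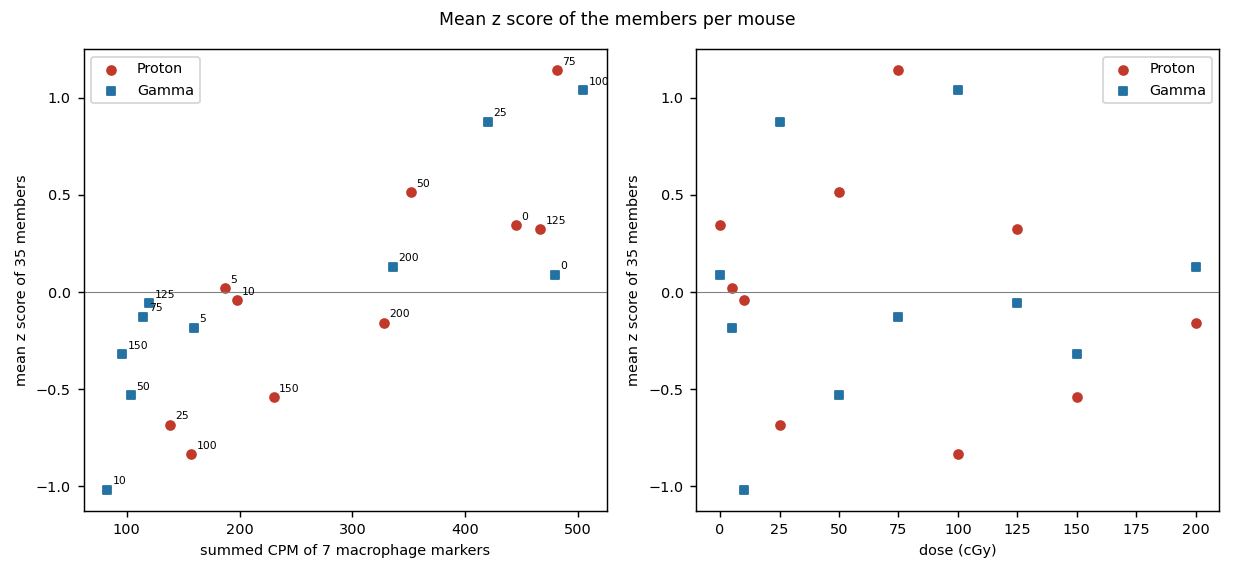
Mean z score of the 35 members in each mouse (y axis) against the summed CPM of 7 macrophage markers (left, points labelled with the dose in cGy) and against dose in cGy (right), with 1 point per mouse (red circles proton, blue squares gamma). On the left the score rises with the marker sum (Spearman correlation 0.83), and on the right the highest mice are at 25, 75 and 100 cGy.

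The genes outside the members that were most like them were ranked by the Spearman correlation over 20 mice with the mean z score. They were Ftl1 (0.94), Fcgrt (0.91), Tmem204 (0.91), H2-T23 (0.91), Tiam1 (0.91), Pi16 (0.91), Ucp2 (0.90), Eps8 (0.89), Scara5 (0.89) and Gsdmd (0.89). Of these H2-T23, an MHC class I gene, and Gsdmd, the pore-forming protein of pyroptosis, are immune genes, whereas Ftl1 encodes ferritin light chain and Fcgrt the neonatal Fc receptor. In all, 190 tested genes outside the members (1.45%) had a correlation above 0.8.

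The question of dose was put to each gene with the log2 slope per 100 cGy from edgeR's quasi-likelihood test, fitted in 1 model in which protons and gamma rays each had their own intercept and slope, and adjusted by Benjamini-Hochberg over all 13124 genes, with a threshold of 0.1. None of the 35 members passed after proton radiation, where 1.76% of all tested genes did, and none passed after gamma radiation, where 7.65% did. At an unadjusted p under 0.05 there were 3 members after proton radiation (Tap1 and Parp14 upward, Igtp downward) and 2 after gamma radiation (Tap1 and Parp14 upward), of 35, where 13.3% and 18.4% of all tested genes had such a p. DESeq2 likewise called 0 members, among 34 and 25 members to which it gave an adjusted p. The slopes of members ran from -0.56 to 0.47 for protons (median -0.08, against 0.00 over all tested genes) and from -0.44 to 0.39 for gamma rays (median 0.02, against 0.01). They were above 0 in 14 members after proton and in 20 after gamma radiation, and 50.6% and 53.5% of all tested genes had slopes above 0. The median standard error of a member's slope was 0.18 for both types, and it ran from 0.06 (Ifi35, both types) to 0.56 (Rsad2, protons). In simulated data, edgeR's slope test recovered 15% (protons) and 6.25% (gamma rays) of slopes of size 0.25. It recovered 47.5% and 55% of slopes of size 0.5, and 90% and 77.5% of slopes of size 1. The simulated slopes were placed on genes drawn at random from all tested genes, with noise drawn separately for each gene. The members had lower counts and varied together, so these shares need not hold for them. Slopes of the sizes seen in the members could have been missed.

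The rank correlation of count with dose was put to an exact permutation test, one-sided in each direction. It also called 0 members upward after proton radiation (0.198% of all tested genes) and 0 after gamma radiation (1.9%), and 0 downward (0% and 0.411%). At an unadjusted p under 0.05 in the exact test, Tap1 and Parp14 were upward and Igtp and Rsad2 downward in proton mice. In gamma mice Parp14, Tap1, Igtp, Gbp3, Ddx58 and Parp9 were upward and no member was downward. Of all tested genes, 7.12% were upward and 5.47% downward in proton mice, and 14.5% upward and 8.86% downward in gamma mice, at this unadjusted p. The smallest adjusted p among members was 0.609 upward and 0.833 downward for protons and 0.208 upward and 0.882 downward for gamma rays (exact permutation test). In the simulated data this test recovered 5% (protons) and 2.5% (gamma rays) of upward slopes of 0.25. Of upward slopes of 0.5 it recovered 15% and 22.5%.

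**Figure D4:**
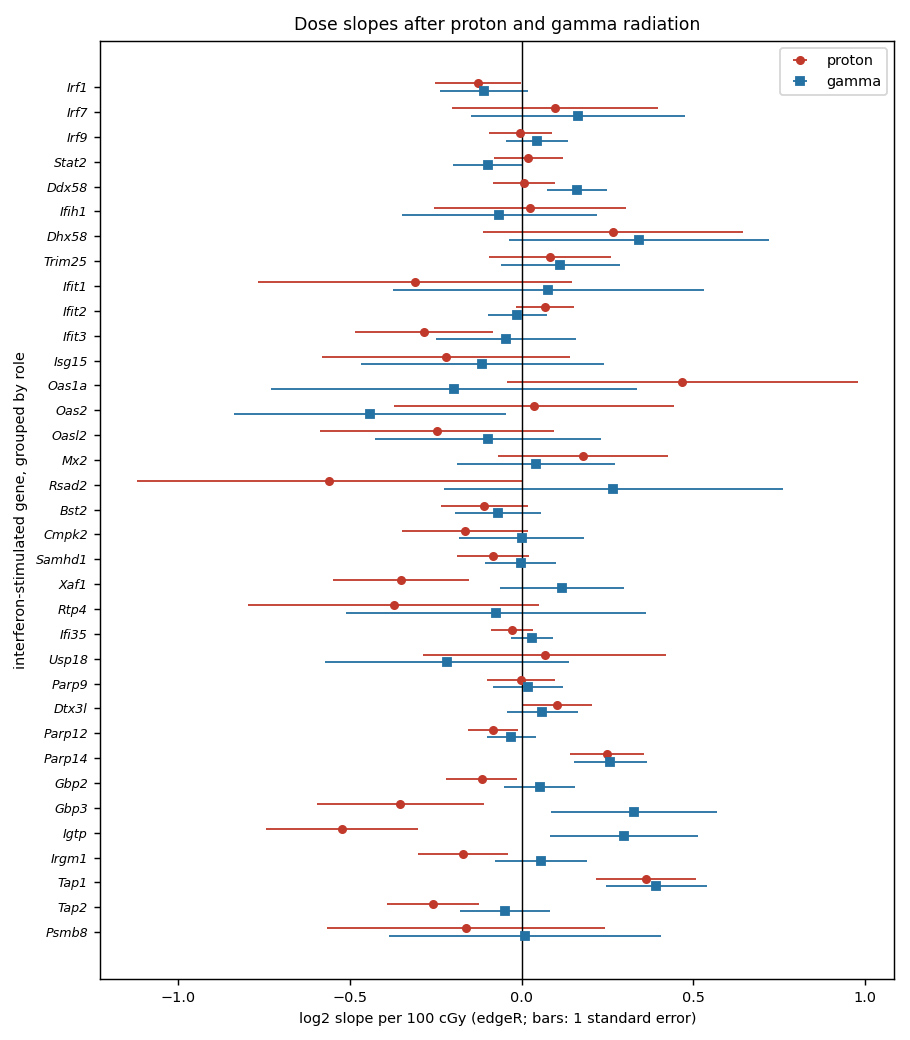
Log2 slope per 100 cGy (x axis, points) with 1 standard error (bars) for each of the 35 members (y axis, grouped by role) after proton (red circles) and gamma radiation (blue squares), from edgeR. Most bars reach 0, Tap1 and Parp14 lie to the right for both types, and Gbp2, Gbp3, Igtp and Irgm1 lie on opposite sides of 0 for the 2 types.

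Tap1 (ENSMUSG00000037321, chromosome 17, 34324498 to 34334170, plus strand) came closest to a dose response. Its counts were 59, 79 and 111 in proton mice and 45, 94 and 153 in gamma mice (lowest, median and highest). The 3 proton mice at 125 to 200 cGy, with 104, 111 and 107, had the highest proton counts, whereas the highest gamma count was at 100 cGy. Its slope for protons was 0.36 (standard error 0.14, edgeR adjusted p = 0.271), and it was 0.39 for gamma rays (standard error 0.15, edgeR adjusted p = 0.144). Neither passed. The gamma call depended on the model, since the adjusted p was 0.0884 without the gamma mouse at 25 cGy and 0.0984 with an offset for GC content and length, and over 0 to 125 cGy only the gamma slope was 0.65 (edgeR adjusted p = 0.672).

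Parp14 (ENSMUSG00000034422, chromosome 16, 35832960 to 35871630, minus strand), an ADP-ribosyltransferase, had counts of 103, 172.5 and 180 in proton mice and 104, 144.5 and 178 in gamma mice (lowest, median and highest). Its counts at 150 and 200 cGy were 178 and 180 for protons and 178 and 172 for gamma rays, but the sham-irradiated proton mouse had 173, close to the values at the high doses. The slopes were 0.25 for protons (standard error 0.11, edgeR adjusted p = 0.314) and 0.26 for gamma rays (standard error 0.11, edgeR adjusted p = 0.186), and 0.12 and 0.10 with the offset for GC content and length.

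Igtp (ENSMUSG00000078853, chromosome 11, 58013058 to 58021093, plus strand), an immunity-related GTPase that protects against intracellular pathogens, had counts of 29, 48 and 84 in proton mice and 35, 55 and 119 in gamma mice (lowest, median and highest). The 2 lowest proton counts, 32 and 29, were at 150 and 200 cGy, where the gamma counts were 61 and 61. The slopes were -0.52 for protons (standard error 0.22, edgeR adjusted p = 0.305) and 0.30 for gamma rays (standard error 0.22, edgeR adjusted p = 0.536), and -0.28 and 0.71 over 0 to 125 cGy only. Their difference was -0.82 (standard error 0.31, unadjusted p = 0.0151 in edgeR, not passing after adjustment). Gbp2, Gbp3 and Irgm1 had slopes from -0.35 to -0.12 for protons and from 0.05 to 0.33 for gamma rays, and Mx2 had 0.18 and 0.04. None of these passed the test.

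Tap2 (ENSMUSG00000024339, chromosome 17, 34340472 to 34353266, plus strand) and Ddx58 (ENSMUSG00000040296, chromosome 4, 40150806 to 40186861, minus strand), the RNA sensor RIG-I, were the remaining members among the smallest p-values. Tap2 counts were 138, 211.5 and 308 in proton mice, with the 2 lowest at 150 and 200 cGy, and its proton slope was -0.26 (standard error 0.13, edgeR adjusted p = 0.429), which was 0.11 over 0 to 125 cGy only. Its gamma counts were 144, 189.5 and 253. Ddx58 counts were 129, 170.5 and 198 in gamma mice and 156, 174 and 226 in proton mice, and its gamma slope was 0.16 (standard error 0.09, edgeR adjusted p = 0.345).

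**Figure D5:**
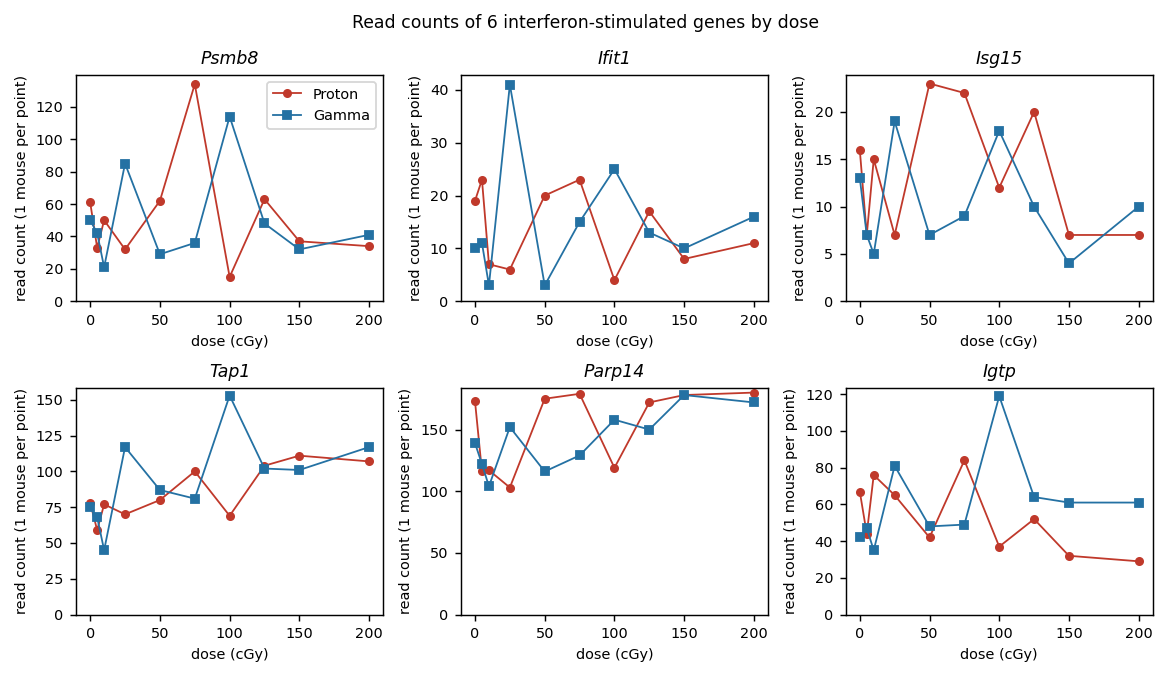
Read counts (y axis, 1 mouse per point) by dose in cGy (x axis) in proton (red circles) and gamma mice (blue squares) for Psmb8, Ifit1 and Isg15, which followed the other members closely, and for Tap1, Parp14 and Igtp, which had the smallest p-values for a dose slope. The upper row moves by single mice, such as Psmb8 in the proton mouse at 75 cGy (134), and the lower row shows the scatter around the slopes.

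Protons and gamma rays were compared in 2 ways. The difference between the slopes passed for 0 of the 35 members and for 0% of all tested genes, with 254 genes and 1 member, Igtp, at an unadjusted p under 0.05 in edgeR. The proton slope was below the gamma slope in 27 of 35 members and above it in 8, and it was above it in 49.3% of all tested genes. The median difference was -0.07, against -0.00 over all tested genes. The members moved together in the same mice, so these are not 27 separate results. With dose as a block, the mean level after proton radiation differed from that after gamma radiation for 0 members and 0% of all tested genes, with 1032 genes and 2 members at an unadjusted p under 0.05. DESeq2 also called 0 members in both comparisons, among 35 and 24 members with an adjusted p. One was Samhd1, with a log2 difference of -0.21 (proton minus gamma, standard error 0.07, edgeR adjusted p = 0.431), with median counts of 485 in proton and 596 in gamma mice and overlapping ranges. The other was Parp12, an ADP-ribosyltransferase, with a log2 difference of 0.14 (standard error 0.06, edgeR adjusted p = 0.548) and median counts of 169 and 152.

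The wider interferon pathway was read from a list of 133 further genes, of which 117 had a row and 97 were tested. After proton radiation 1 of the 97 rose and none fell (1.6% and 0.16% of all tested genes), and after gamma radiation 3 rose and 1 fell (5.44% and 2.21%). Eif2ak2 (ENSMUSG00000024079, chromosome 17, 79251904 to 79281913, minus strand), the double-stranded RNA-dependent kinase PKR, rose with both types. Its counts were 79, 108 and 172 in proton mice and 69, 91 and 156 in gamma mice (lowest, median and highest), with the highest counts of both types at 150 cGy. The slopes were 0.43 for protons (standard error 0.09, edgeR adjusted p = 0.0368) and 0.47 for gamma rays (standard error 0.09, edgeR adjusted p = 0.0115), and neither passed over 0 to 125 cGy only (0.42 and 0.27). The proton slope was 0.35 without the proton mouse at 150 cGy (edgeR adjusted p = 0.216), and the gamma slope was 0.50 without the gamma mouse at 200 cGy (edgeR adjusted p = 0.106). The rank correlation of its count with dose was 0.95 for protons (exact permutation test upward, adjusted p = 0.0545). For gamma rays it was 0.88 (exact permutation test upward, adjusted p = 0.0715), so both passed this test. Over the 20 mice, Eif2ak2 had a correlation of -0.02 with the mean z score of the members.

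After gamma radiation the kinase Tbk1, which activates interferon regulatory factors, had a slope of 0.19 (standard error 0.06, edgeR adjusted p = 0.0778) and Tlr4, the receptor for lipopolysaccharide, one of 0.38 (standard error 0.12, edgeR adjusted p = 0.0776). Calr, the chaperone calreticulin, fell by 0.30 on the log2 scale (standard error 0.09, edgeR adjusted p = 0.0733). Gamma counts were 186, 210.5 and 264 for Tbk1, 126, 181.5 and 282 for Tlr4 and 3786, 4668 and 6797 for Calr. None of these 3 passed over 0 to 125 cGy only, and none passed with the offset for GC content and length. The call of Calr was lost without the gamma mouse at 0, 25, 125, 150 or 200 cGy (edgeR adjusted p = 0.102 to 0.245), that of Tlr4 without the gamma mouse at 5, 25, 50, 150 or 200 cGy (edgeR adjusted p = 0.104 to 0.456) and that of Tbk1 without 1 of 8 gamma or 2 proton mice (edgeR adjusted p = 0.102 to 0.297).

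Of 11 interferon genes listed, Ifne and Ifng had a row, with at most 1 count in a mouse, and none was tested. None of the 11 tested genes of the receptors and their signalling passed in either type, with Ifnar2 at 201, 219.5 and 373 counts in proton mice and 194, 216 and 277 in gamma mice. The 14 tested genes of MHC class I and its loading complex had a median correlation of 0.70 with the mean z score of the members, among them B2m, the light chain of MHC class I (0.77), whose counts were 2260, 2549 and 3409 in proton mice and 2261, 2583 and 3387 in gamma mice. The 8 negative regulators had a median correlation of 0.14, the 13 sensor pathway genes 0.32 and the 51 other interferon-stimulated genes 0.49.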

How the data were processed

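Thoracic aorta RNA of 20 mice was read as polyA-selected, stranded libraries. The authors processed the reads with CASAVA 1.8.1, mapped them to mm9 with STAR 2.5.2a, resampled the libraries to a common depth with PORT and deposited sense-strand read counts per gene, which were used as deposited. Each mouse had between 6051657 and 6058006 counts. Samples were grouped by the labelled radiation type and dose. Gene positions are from GENCODE M1 on the same genome, and promoter sequences are from RefSeq on GRCm38.p6.

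The members and lists were chosen with earlier results of these data known, and no p is given for the members as a set. Genes with a mean count of 5 or more were tested in edgeR 4.0.16 (TMM, robust quasi-likelihood, R 4.3.3), with Benjamini-Hochberg adjustment over all 13124 genes and a threshold of 0.1. Rank trends used an exact permutation test over all dose orders. CPM were computed with TMM library sizes, and joint variation used Spearman correlations of log2(CPM + 1). The members described in full were those with the 4 smallest slope p-values in each radiation type, the 6 highest and 3 lowest correlations with the other members, and the 10 genes outside the members that were most alike. Other genes named as examples were chosen after their values were seen. Scripts were checked on simulated data. Alternatives were DESeq2 1.42.0, other count minimums and normalizations, other dose scales, an offset for GC content and length, 1 surrogate variable (sva 3.50.0) and leaving out each mouse. The fits and residuals with marker sums, the split of mice by macrophage markers, and the marker correlations and spreads without the proton mouse at 75 cGy, were added after the data were seen.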

Additional observations from a re-analysis of the deposited data

Results flagged for a closer look

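Among the counts of each member and the mean z score in each set of 10 mice, 72 groups of values in all, 6 held a single mouse that stood apart, with a gap to its nearest neighbour that exceeded Dixon's 95% critical value as a share of the whole range. Chance flags about 1 in 20 such groups. Trim25 in proton mice had a ratio of 0.698 and Rsad2 in proton mice had 0.516, both for the mouse at 75 cGy, with 209 counts against a median of 92 and 83 counts against a median of 15. Oas1a in proton mice had 0.514, for 19 counts at 125 cGy against a median of 5, and Samhd1 in proton mice had 0.535, for 768 counts at 5 cGy against a median of 485. In gamma mice Xaf1 had 0.531, for a lowest count of 15 at 50 cGy against a median of 34.5, and Usp18 had 0.495, for 20 counts at 25 cGy against a median of 10.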

How the results depend on the processing

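No member passed the slope test in most alternatives. The exceptions were, for protons, 1 member (Tap1) with the brown fat marker score as a covariate and 2 (Igtp and Tap1) with 1 surrogate variable, and, for gamma rays, 1 (Tap1) with the brown fat or the smooth muscle score or the offset for GC content and length, and 2 (Parp14 and Tap1) with the macrophage or red blood cell score or 1 surrogate variable. Leaving out 1 mouse at a time gave 0 members for protons and 0 to 1 for gamma rays (Tap1 without the gamma mouse at 25 cGy). The slope difference and the comparison of types gave 0 members under all alternatives run. The proton slope of Tap2 turned from -0.26 to 0.11 over 0 to 125 cGy only. The number of all tested genes called moved from 231 to between 14 and 643 for protons and from 1004 to between 34 and 1780 for gamma rays, with 0 to 125 cGy only at the low and 1 surrogate variable at the high end, and was 67 and 204 with the offset for GC content and length. Without single mice it ran from 29 to 637 and from 77 to 1583. For the comparison of types it was 0, 70 with DESeq2 and 0 to 29 without single mice. The median pair correlation of 0.38 was 0.24 over the 20 members with a mean count of 50 or more, 0.18, 0.27, 0.25, 0.23 and 0.27 with a line on the macrophage, endothelial, smooth muscle, red blood cell and brown fat scores removed, 0.21 in the 10 mice with the lower macrophage sums and 0.34 to 0.42 without single mice. The part of GC dependence, which differed at the highest doses, in these shifts was not tested. Proton and gamma mice were matched by dose alone, since the labels give each mouse a number of its own, and without dose as a block the comparison of types also gave 0 members. Each dose had 1 mouse of a type.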
